A study of Mus musculus with 3 samples.

Results

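Outside the large imprinted clusters, 5 mouse miRNAs lie in other imprinted loci: miR-335 in Mest, miR-483 in Igf2, miR-675 in H19, and miR-296 and miR-298 beside Gnas. Their levels were measured in extracellular vesicles (EVs) of the postnatal day 7 (PND7) mouse testis. Members were chosen by name alone, as every mature or hairpin entry of these 5 miRNAs with a count in any library. The rule found 18 of the 1347 miRNA entries, namely 9 of 604 mature entries and 9 of 743 hairpin entries. The type "hairpin" is a label of the deposited catalogues and is not defined in the sources used here.

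The EVs came from decapsulated testes of C57/BL6 male mice at PND7, dissociated with Accumax, and 10 mice were pooled for each of 3 preparations, named replicates 1 to 3. EVs were bound to an exoEasy column, concentrated by ultracentrifugation, and treated with proteinase K, PMSF and RNase A before RNA extraction. The sample titles carry the word treated, but no untreated sample or other comparison group was analysed here. All values therefore describe 1 condition, and since each preparation pooled whole testes, the cells that released a miRNA and the amount released per cell cannot be told apart.

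An imprinted gene is expressed mainly from the copy inherited from one parent. Mest and Igf2, which encodes a fetal growth factor, are expressed from the paternal copy, and H19, a long noncoding RNA made next to Igf2, from the maternal copy. A miRNA is cut from a hairpin precursor by Drosha and Dicer, either arm (5p or 3p) can be loaded into an Argonaute protein, and target choice rests largely on the seed near its 5′ end. miR-675 is cut from H19 itself, and in placenta its release is known to limit growth.

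The mature sequences are shown because each entry is counted by its own arm. They came from the RefSeq table for GRCm38.p6, and the capitals mark the seed, bases 2 to 8.
miR-296-5p: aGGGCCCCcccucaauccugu
miR-296-3p: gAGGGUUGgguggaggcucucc
miR-298-5p: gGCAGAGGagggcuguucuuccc
miR-298-3p: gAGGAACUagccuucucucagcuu
miR-335-5p: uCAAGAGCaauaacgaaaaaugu
miR-335-3p: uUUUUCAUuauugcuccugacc
miR-483-5p: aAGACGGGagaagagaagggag
miR-483-3p: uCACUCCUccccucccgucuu
miR-675-5p: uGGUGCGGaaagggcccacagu
miR-675-3p: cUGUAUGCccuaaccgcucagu
No seed was shared between these 10 sequences, and none of the 1679 mature miRNAs of the table carried one of these seeds outside the members. The arms of miR-483 differed most in base composition. Purines made up 95.5% of miR-483-5p and 9.52% of miR-483-3p, whereas the 5th to 95th percentiles of the other counted miRNAs with a sequence ran from 27.3% to 66.7%. miR-296-5p held a run of 7 C. The G and C content was 66.7% in miR-296-5p and 68.2% in miR-296-3p, but 30.4% in miR-335-5p and 36.4% in miR-335-3p, against a median of 47.6% in the other counted miRNAs.

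The precursors of the miRNAs whose arms were counted most are shown next, 5′ to 3′ in RNA letters, with the 5p and then the 3p arm in capitals.
Mir296: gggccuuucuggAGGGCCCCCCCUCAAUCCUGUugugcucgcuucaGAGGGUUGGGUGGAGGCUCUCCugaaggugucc
Mir335: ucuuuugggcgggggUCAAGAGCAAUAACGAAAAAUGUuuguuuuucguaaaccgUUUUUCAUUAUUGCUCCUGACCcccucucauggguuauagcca
Mir296 lies on the minus strand at chr2:174267047-174267125 (GRCm38) and Mir298 on the same strand at chr2:174267504-174267585, with 378 bases between them. Neither overlapped a gene of the GENCODE vM21 annotation, and 13651 bases separated Mir298 from the annotated end of Nespas, the antisense transcript of the Gnas locus. Mir335 lies at chr6:30741299-30741396 on the plus strand, in an intron of Mest. Mir483 lies at chr7:142654924-142654996 on the minus strand in an intron of Igf2, and of the overlapping gene model Gm49394. Mir675 lies at chr7:142577064-142577147 on the minus strand in an exon of H19, 77776 bases from Mir483.

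The libraries held 25716952, 26002463 and 27939308 clean reads in replicates 1 to 3. Of these, 870967, 1005836 and 966468 were counted on mature entries and 493345, 612122 and 577529 on hairpin entries. Levels are given as counts per 1000000 counts (CPM) of the entries of the same type. A count of 0 allows up to 3 counts, which is 2.98 to 3.44 CPM for a mature and 4.90 to 6.08 CPM for a hairpin entry. Intervals and this floor cover counting error only, since PCR copies were not told apart. Among miRNAs that mark cell types, the gonadal somatic miR-202 was at 25783 ± 4325 CPM (SD, n = 3), endothelial miR-126a at 12512 ± 4250 CPM and mural miR-143 at 9494 ± 630.1 CPM. Of the germ cell markers, miR-449a was at 718 ± 314 CPM, miR-34b at 73.5 ± 54.7 and miR-34c at 54.8 ± 74.2. The values of miR-34b and miR-34c are those of the 3p arm alone, since neither had a 5p arm among the mature entries. Mural miR-145a was at 3365 ± 368 CPM, muscle miR-133a, miR-1a and miR-206 at 470.2, 259 and 89.7, and erythroid miR-451a and miR-144 at 411.5 and 6.05. Leukocyte miR-223 and miR-142a were at 20.2 and 6.92 CPM, neural miR-9 at 8.68 and liver miR-122 at 0.331, and miR-124, a neural miRNA, had no mature entry. The part of these cell types in the members' levels was not tested.

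Most of the members' counts belonged to miR-296. Its mature arms together were counted 766, 1387 and 1383 times in replicates 1 to 3, or 1230 ± 305 CPM (SD, n = 3). This was 76.7%, 89.4% and 90.0% of all mature counts of the members. All members together had 999, 1551 and 1536 mature counts, which is 1426 ± 243 CPM or 0.143% ± 0.0243 of the mature miRNA counts. Without miR-296, the members came to 196 ± 61.7 CPM.

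miR-335 followed with 75, 44 and 56 mature counts, or 62.6 ± 21.6 CPM. miR-675 was at 54.1 ± 25.3 CPM from 39, 35 and 80 counts, and miR-298 at 43.2 ± 37.8 CPM from 61, 60 and 0 counts. miR-483 was at 36.3 ± 26.4 CPM from 58, 25 and 17 counts. These 4 miRNAs overlapped in level, and their order was not stable. Without replicate 1, miR-483 came to 21.2 CPM. Without replicate 2 miR-298 was lower than miR-483 (35.02 against 42.1 CPM), and without replicate 3 miR-675 was (39.8 against 45.7 CPM). The log2 ratio of miR-296 to miR-335 was 4.29 ± 0.85 (SD) and was above 0 in 3 of 3 libraries (two-sided exact permutation test flipping the sign of whole libraries, p = 0.25, adjusted p = 1 over 4 neighbouring pairs). That p is the smallest this permutation test can give with 3 libraries, so it cannot pass 0.05 here. The pairs and their direction were set by the order of mean mature level in these same libraries. The next ratios, 0.25 ± 0.72 for miR-335 to miR-675, 1.65 ± 4.06 for miR-675 to miR-298 and -0.96 ± 2.84 for miR-298 to miR-483, were all smaller than their SD (exact permutation p = 0.75, 1 and 1, adjusted p = 1 for each). The ratios with miR-298 rest on 0 counts in replicate 3, with 1 count added to each side. With mature and hairpin entries summed they changed sign, to -0.49 ± 1.84 for miR-675 to miR-298 and 0.21 ± 0.70 for miR-298 to miR-483. Without replicate 3 they changed sign too, to -0.70 and 0.65, and without replicate 1 the ratio of miR-335 to miR-675 was -0.093.

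**Figure D1:**
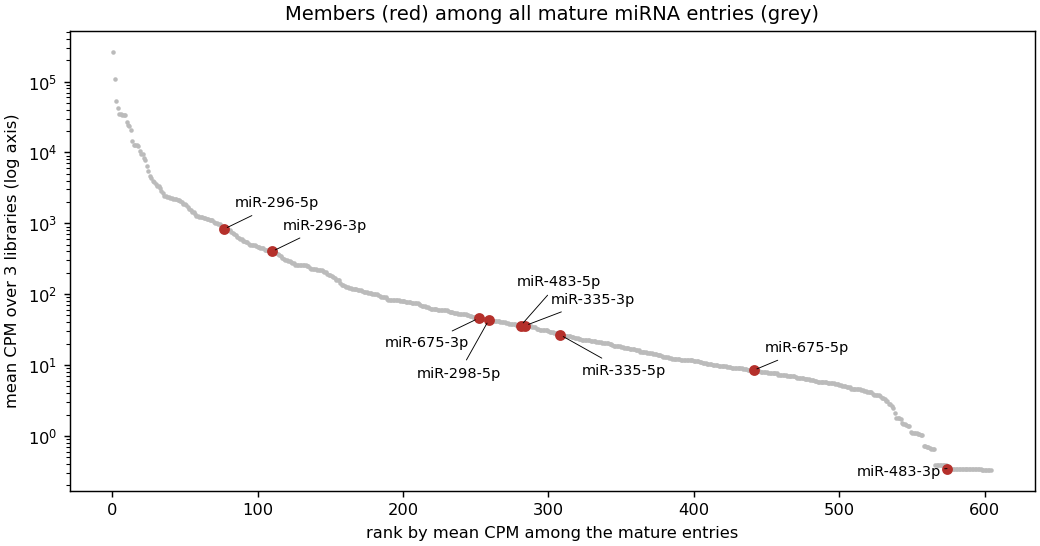
Mean CPM over 3 libraries (log axis) against rank for the 604 mature entries, with the 9 members in red. miR-296-5p and miR-296-3p stand at ranks 77 and 110, 5 members lie between ranks 252 and 308, and miR-675-5p and miR-483-3p are at ranks 441 and 574.

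Of the 10 mature sequences above, 9 had a count, and miR-298-3p had none of either type in any library. In all 3 libraries, 6 of the 9 mature members had counts, beside 54.1% of all mature entries. For hairpin entries it was 6 of 9, beside 55.6% of all hairpin entries. Both shares were near their background.

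miR-296-5p was the most abundant member, with 355, 1158 and 898 mature counts in replicates 1 to 3. Its level was 408, 1151 and 929 CPM, a mean of 829.3 ± 381.8, at rank 77 of the 604 mature entries. Replicate 1 was the lowest, by a factor of 2.82 below replicate 2. miR-296-3p was at 472, 228 and 502 CPM, a mean of 400.5 ± 150, at rank 110. Here replicate 2 was the lowest, so the arms of 1 hairpin took opposite orders between replicates 1 and 2. The mature miRNAs nearest to miR-296-5p over the 3 libraries, by Euclidean distance of log2(CPM + 1), were miR-676-3p (0.52), miR-449a-5p (0.54) and miR-342-3p (0.75).

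miR-298-5p, the neighbour of miR-296, was counted 61 and 60 times in replicates 1 and 2 and not at all in replicate 3. Its mean was 43.2 ± 37.8 CPM. Its hairpin entry was counted 59, 44 and 44 times, so replicate 3 had counts of miR-298-5p on the hairpin entry alone.

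**Figure D2:**
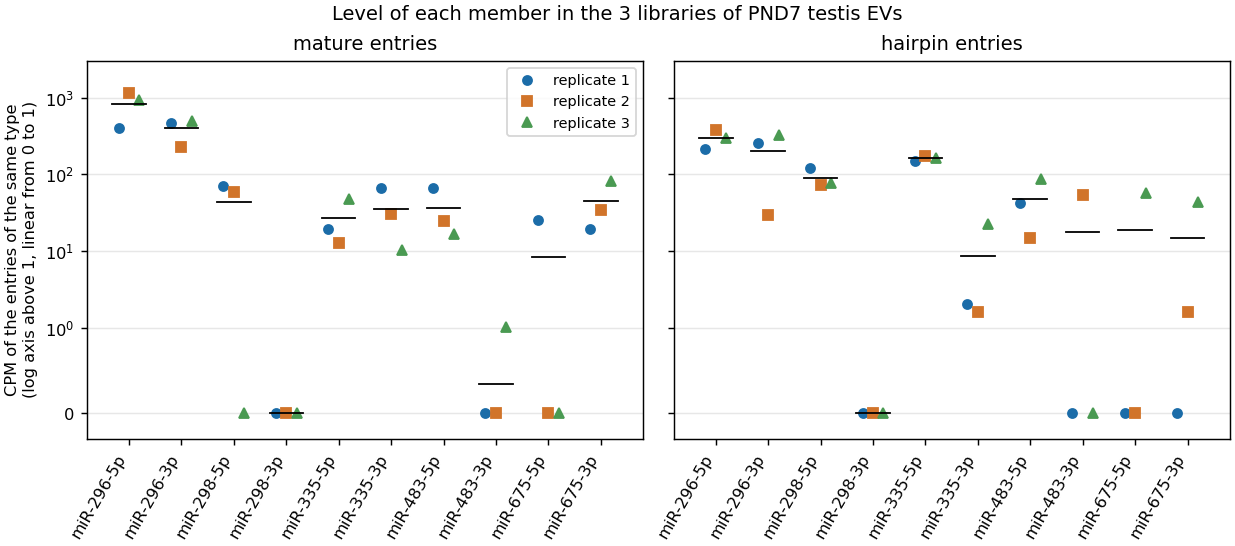
CPM of each member in each library, for mature entries (left) and hairpin entries (right), on an axis that is logarithmic above 1 and linear from 0 to 1. Horizontal lines are means over 3 libraries, and the points of hairpin miR-335-5p lie closest together, between 148 and 176 CPM.

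At the Mest locus, miR-335-3p had 58, 31 and 10 mature counts and miR-335-5p 17, 13 and 46. In CPM this was 66.6, 30.8 and 10.3 for the 3p arm, a mean of 35.9 ± 28.5, and 19.5, 12.9 and 47.6 for the 5p arm, a mean of 26.7 ± 18.4. The 3p arm was highest in replicate 1 and the 5p arm in replicate 3. The miRNAs nearest in level to miR-335-3p were miR-30e-5p (0.58), miR-134-3p (0.96) and miR-351-3p (1.02).

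At Igf2, miR-483-5p had 58, 25 and 16 mature counts, or 66.6, 24.9 and 16.6 CPM, a mean of 36.0 ± 26.8. It was highest in replicate 1. miR-483-3p had 1 mature count, in replicate 3. Nearest to miR-483-5p were miR-30e-5p (0.87), miR-134-3p (0.96) and miR-27b-5p (1.06).

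At H19, miR-675-3p had 17, 35 and 80 mature counts, or 19.5, 34.8 and 82.8 CPM, a mean of 45.7 ± 33.0. It was highest in replicate 3. miR-675-5p had 22 mature counts in replicate 1 and 0 in the others, with a mean of 8.42 ± 14.6 CPM. Nearest to miR-675-3p were miR-377-5p (0.22), miR-291b-5p (0.47) and miR-19b-3p (0.58).

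The mature levels of the members differed between libraries. All 6 members with mature counts in every library had a highest CPM over 2 times the lowest, beside 49.2% of the 327 such entries. These 6 had at least 10 counts in every library, where the share was 40.4%. The factor ran from 2.20 in miR-296-3p to 6.44 in miR-335-3p, with a median of 3.85 against 1.97 over the 327 entries and 1.73 over the 272 entries with at least 10 counts in every library. With both arms summed, the mature factor was 1.63 for miR-296 and 1.97 for miR-335. Leaving out 1 library moved some means by over 1.5 times: without replicate 1, miR-335-3p came to 20.6 and miR-483-5p to 20.7 CPM, and without replicate 3, miR-335-5p came to 16.2 and miR-675-3p to 27.2 CPM. Most of these members had few counts, and the part of counting error in their spread was not tested.

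The arms of miR-296 changed order between libraries. The 5p arm held 46.3% of the mature miR-296 counts in replicate 1 (exact binomial 95% interval 42.8 to 49.9), 83.5% in replicate 2 (81.4 to 85.4) and 64.9% in replicate 3 (62.4 to 67.4). The 3 intervals, which cover counting error only, did not overlap, and the share of other miRNAs with the same was not counted. The log2 ratio of 5p to 3p was 1.00 ± 1.28 and was above 0 in 2 of 3 libraries (exact permutation p = 0.5, adjusted p = 0.625 over 5 miRNAs). In hairpin entries the 5p share was 45.9%, 92.9% and 47.8%, and with both types summed it was 46.2%, 84.9% and 61.4%. Replicate 2 thus had the highest 5p share in each type.

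The arms of miR-335 changed order as well, but in mature entries alone. The 5p arm held 22.7% of mature counts in replicate 1 (interval 13.8 to 33.8), 29.5% in replicate 2 (16.8 to 45.2) and 82.1% in replicate 3 (69.6 to 91.1). In hairpin entries it held 98.6%, 99.1% and 88.0%. With both types summed the 5p arm had 90, 121 and 141 counts against 59, 32 and 23 of the 3p arm, or 60.4%, 79.1% and 86.0%. The log2 ratio of 5p to 3p was -0.27 ± 2.06 in mature entries (exact permutation p = 1, adjusted p = 1) and 1.68 ± 1.00 when summed (3 of 3 libraries, exact permutation p = 0.25, adjusted p = 0.417). In replicates 1 and 2, the more abundant arm of miR-335 therefore depended on whether hairpin entries were counted. In replicate 3 the 5p arm was the more abundant in mature, hairpin and summed counts. Without replicate 1 the mature ratio was 0.45 and without replicate 2 it was 0.19.

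A change of the more abundant arm was found in 17.1% of the 41 miRNAs with over 3 mature counts of both arms in every library, and in 14.9% of 67 with the types summed. Among the members, miR-296 and miR-335 met that minimum, and both changed order in mature entries, but only miR-296 did when the types were summed.

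**Figure D3:**
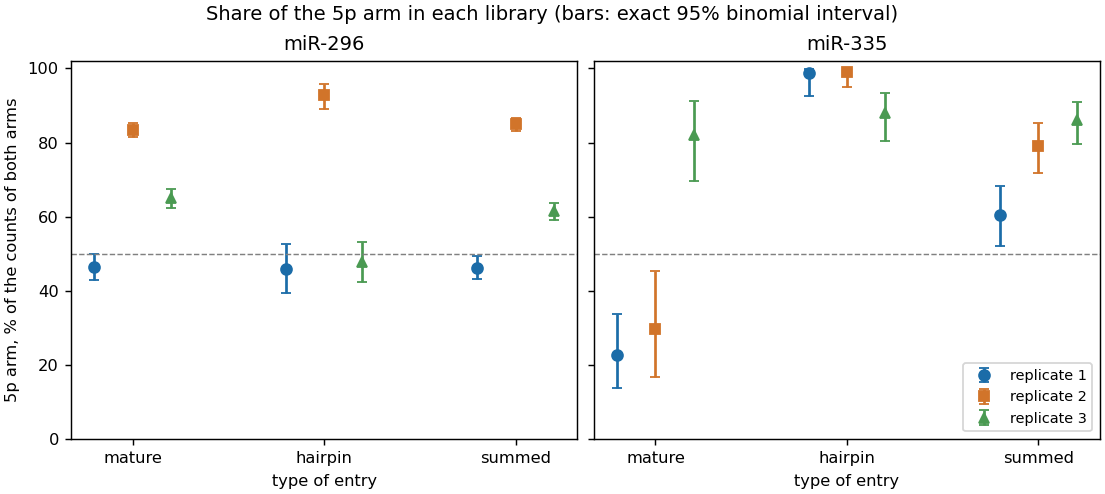
Share of the 5p arm among the counts of both arms of miR-296 (left) and miR-335 (right), in mature entries, hairpin entries and their sum, with exact 95% binomial intervals and a dashed line at 50%. Replicate 2 is highest for miR-296 in each type, and for miR-335 the mature share of replicates 1 and 2 is below 50% whereas every hairpin and summed share is above it.

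For the other miRNAs 1 arm had at most 3 mature counts in some library. miR-483 was counted as 5p in mature entries, with 58, 25 and 16 counts against 0, 0 and 1 of the 3p arm (log2 ratio 4.56 ± 1.40 with 1 count added to each arm, exact permutation p = 0.25, adjusted p = 0.625). In hairpin entries, replicate 2 had 33 counts of miR-483-3p against 9 of miR-483-5p, and the other libraries none of the 3p arm. miR-675 was 22 to 17 for 5p against 3p in replicate 1, but 0 to 35 and 0 to 80 in replicates 2 and 3 (-3.72 ± 3.57, exact permutation p = 0.5, adjusted p = 0.625). miR-298 was counted as 5p alone (3.96 ± 3.43, exact permutation p = 0.5, adjusted p = 0.625). Of the 4 members with both arms among the mature entries, only miR-483 had more 5p than 3p counts in every library, beside 40.1% of the 137 miRNAs with both arms.

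Counts on hairpin entries came to 784, 734 and 1067 CPM over all members, a mean of 862 ± 179. miR-335-5p had more hairpin than mature counts in every library, with 73, 108 and 95 hairpin counts, which was 81.1%, 89.3% and 67.4% of its counts. The log2 ratio of hairpin to mature counts was 2.01 ± 0.97 (3 of 3 libraries, exact permutation p = 0.25, adjusted p = 0.5625 over 9 members). Of the 5 members with both types in every library it alone had this order, beside 29.5% of the 292 such identifiers.

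miR-296 was mostly mature. Hairpin entries held 23.2%, 16.9% and 15.9% of the counts of miR-296-5p (log2 ratio -2.14 ± 0.36) and 23.5%, 7.29% and 27.7% of those of miR-296-3p (-2.22 ± 1.20), with fewer hairpin than mature counts in 3 of 3 libraries for each (exact permutation p = 0.25, adjusted p = 0.5625). The median hairpin share of all 395 identifiers with at least 10 counts in every library was 50.8%, 52% and 54.4%. Both arms of miR-296 were below that median in every library, and miR-335-5p above it.

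miR-675-3p was mostly mature in every library too, with hairpin shares of 0%, 2.78% and 23.8% (log2 ratio -3.33 ± 1.46, exact permutation p = 0.25, adjusted p = 0.5625). In other members the more abundant type changed with the library. miR-483-5p was 26.6% and 26.5% hairpin in replicates 1 and 2 but 75.8% in replicate 3, and miR-335-3p was 1.69% and 3.13% but 56.5%. miR-298-5p was 49.2%, 42.3% and 100% hairpin. Replicate 3 had the highest hairpin share in these 3, in miR-675-3p and in miR-296-3p, but the lowest in miR-335-5p and miR-296-5p. The median share of the 395 identifiers with at least 10 counts in every library was also highest in replicate 3, at 54.4%. miR-675-5p was counted as mature in replicate 1 (22 counts), as hairpin in replicate 3 (33 counts) and not at all in replicate 2.

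**Figure D4:**
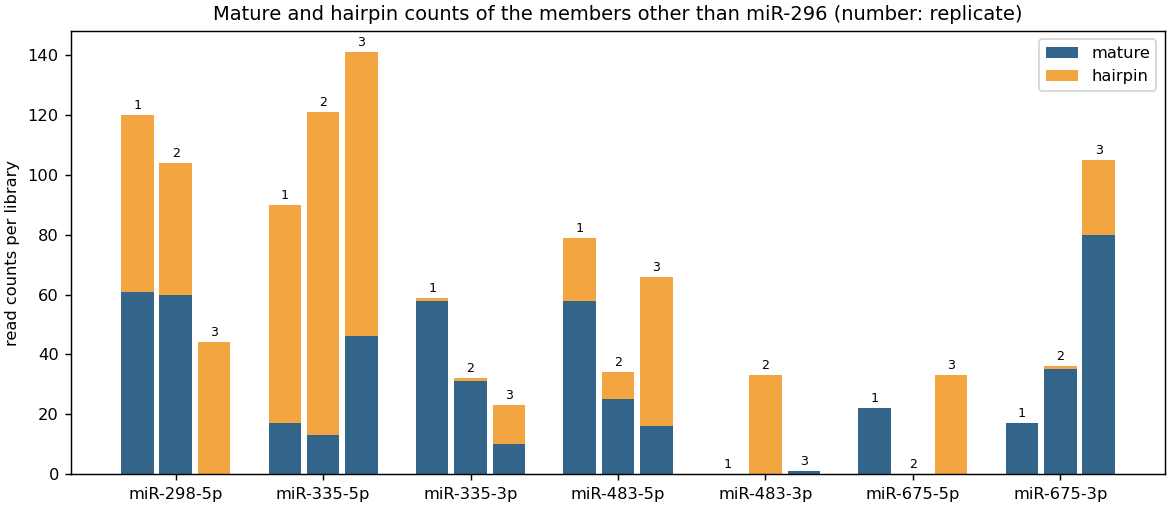
Read counts of the mature (blue) and hairpin (orange) entries of the members other than miR-296, stacked, with the replicate above each bar. miR-335-5p is mostly hairpin in each library, and miR-298-5p has no mature counts in replicate 3.

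With mature and hairpin counts summed, miR-335 was the steadiest of the 5 miRNAs, at 149, 153 and 164 counts, or 109, 94.6 and 106 CPM of both types, a factor of 1.15. miR-483 came to 79, 67 and 67 counts with a factor of 1.40, and miR-296 to 999, 1640 and 1739 with a factor of 1.54. miR-298 at 120, 104 and 44 counts and miR-675 at 39, 36 and 138 had factors of 3.09 and 4.02. Among the 6 members with mature counts in every library the factor was smaller when summed for 4, beside 65% of such identifiers, which is near that background. For miR-335-5p it went from 3.68 to 1.38, and for miR-335-3p from 6.44 to 2.90. For miR-296-3p it rose from 2.20 to 2.85, and for miR-675-3p from 4.24 to 5.46. The summed counts of the 5p arm of miR-335 rose from replicate 1 to 3 while those of the 3p arm fell.

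Compared with other imprinted clusters, the members were a small share. The Rtl1-antisense cluster held 26.3% ± 4.73 of mature counts over 13 entries, led by miR-127-3p, and the miR-379/miR-410 cluster 5.90% ± 0.796 over 52 entries, led by miR-411-5p. The miRNAs taken for the Sfmbt2 intron, picked by family number and not by position, held 0.285% ± 0.00549 over 33 entries, led by miR-467a-5p. The log2 ratio of the summed members to these was -7.53 ± 0.51, -5.38 ± 0.30 and -1.01 ± 0.25, below 0 in 3 of 3 libraries each (exact permutation p = 0.25, adjusted p = 0.25 over 3 clusters). Without miR-127-3p, the other 12 entries of the Rtl1-antisense cluster came to 2167 ± 391 CPM, and the ratio was -0.60 ± 0.49. The members kept miR-296 in that ratio, and without miR-296 they came to 196 ± 61.7 CPM. The Rtl1-antisense cluster was a list of names that also held miR-337-5p, at 554.7 CPM, and miR-540-3p, at 222.3 CPM. All members together came to 1426 ± 243 CPM, so the size of this last ratio rests in part on such entries. Whether it keeps its sign with a shorter list was not tested.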

How the data were processed

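Small RNA of PND7 testis EVs was measured in 3 libraries of 1 group, each from 10 pooled mice. Whether the spread between preparations is biological or technical is not separated by this design. The authors sequenced on BGISEQ-500, removed low-quality reads, aligned the remainder using Bowtie2 together with cmsearch, and gave every read 1 class. The build mm10, which is GRCm38, comes from the submitters' processing notes, and mismatch settings and versions are not given in the sources used here. The authors deposited whole-number counts per small RNA, which were assumed here to be raw. Another column that they deposited, with molecular identifiers in its heading, held CPM of clean reads on rows that name a small RNA and was not used.

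The members, lists and tests were chosen with earlier results of these data known. Mature and hairpin counts were scaled to CPM of their own type. Log2 ratios within a library were tested by an exact paired sign-flip permutation test over libraries, two-sided, with Benjamini-Hochberg adjustment over the family named. In these ratios 1 count was added to each side, except in those to the other imprinted clusters, which had no count added. With 3 libraries the smallest p is 0.25. Shares have exact (Clopper-Pearson) 95% intervals. The error rate of the ratio test on simulated data is not reported here. Named were every member, the 3 nearest mature miRNAs of each locus's most abundant member (10 or more counts in each library), the sums and most abundant miRNA of 3 other imprinted clusters, and any miRNA sharing a seed. A restriction of the ratio tests to members above 3 counts was tried after their values were seen and dropped, so all planned ratios are kept. Sequences came from RefSeq, where 442 of 604 mature identifiers matched, and gene overlaps from GENCODE vM21. Tables were handled with pandas 2.3.3 and numpy 2.4.6 under Python 3.11.15, intervals came from SciPy 1.17.1, and plots from matplotlib 3.10.9.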

Additional observations from a re-analysis of the deposited data

Results flagged for a closer look

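Outside the mature and hairpin entries, other entries of the same loci had counts in every library, and no control samples were at hand. The Rfam precursor family mir-296 had 68, 55 and 98 counts in replicates 1 to 3, a mean of 2.76 per 1000000 clean reads, above the 3 counts that a count of 0 allows. The Rfam family of H19 conserved region 1, part of the host transcript of miR-675, had 388, 218 and 359 counts, a mean of 12.1 per 1000000 clean reads. The order of the libraries differed from that of miR-675-3p, which was highest in replicate 3.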

How the results depend on the processing

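The permutation test used cannot go below 0.25 with 3 libraries, so settings are compared by size and direction. The summed level of all members, 1426 CPM of mature counts, was 145.4 per 1000000 counts of all small RNA entries and 51.2 per 1000000 clean reads, because the denominator is larger. With mature and hairpin entries summed, 3 log2 ratios changed sign: 5p to 3p of miR-335 became 1.68, miR-675 to miR-298 became -0.49 and miR-298 to miR-483 became 0.21. Scaled to CPM of each type, hairpin to mature of miR-483-5p changed from -0.41 to 0.35. Leaving out each replicate in turn moved 5p to 3p of miR-335 between -1.45 and 0.45, miR-335 to miR-675 between -0.093 and 0.62, miR-675 to miR-298 between -0.70 and 2.85, and miR-298 to miR-483 between -2.05 and 0.65. It moved hairpin to mature between -0.24 and 2.72 for miR-298-5p, between -0.50 and 2.54 for miR-483-3p, between -1.40 and 0.10 for miR-483-5p, and between -2.26 and 2.54 for miR-675-5p. The cause was not tested. Several of these ratios rest on counts of 0 to 3 in some library, with 1 count added to each side. The ratios to the other imprinted clusters kept their direction under every alternative run. No paired analysis was possible because there is 1 group, and the library itself is the pairing of each ratio.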

Other observations

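The H19 transcript had 19 counts on a further Rfam family, conserved region 3, in replicate 3 and 0 in the others. The Rfam precursor families mir-335, mir-298 and mir-675 had at most 2 counts in any library. Predicted miRNA entries whose running numbers match a member name were left out.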
